A study of Mus musculus with 19 samples.

Results

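The synaptonemal complex and the chromosome axes it joins are described here through 9 genes, Sycp1, Sycp2, Sycp3, Syce1, Syce2, Tex12, Hormad1, Hormad2 and Terb1. They were chosen by name, each was read from a probe set that the platform annotation assigns to that gene alone, and they are 9 of 18193 genes with such a probe set. Where a gene had several, the probe set with the highest mean over the 18 ovary arrays stands for it, which applied to Terb1 with its 2 probe sets. All 9 passed the filter on low signals used for testing.

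Whole ovaries of wild-type CD-1 mice, an outbred stock, were profiled at gestation days (gd) 11, 12, 14, 16 and 18 and at postnatal day (pnd) 2, each stage having 3 arrays, to follow gene expression from day to day through ovary development. The mice carried no treatment or transgene in the labels, and matings were timed within a window of 2 hours. The sample labels call the gd11, gd12 and gd14 ovaries pools of 3 and the later ones not pooled, whereas the series text describes the ovaries of a single animal per sample and a separate dam for each, except that gd11 samples 18 and 19 shared a dam. Of the gd11 samples, 16 and 18 were gonad with mesonephros and 19 was gonad. A further array served as a reference and held RNA of 8 whole animals, male and female, pooled at pnd 0.5.

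In meiotic prophase I the sister chromatids of each chromosome are organised along a protein axis, and the axes of paired homologues are then zipped together by the synaptonemal complex while recombination proceeds. SYCP2 and SYCP3 build the axis, HORMAD1 and HORMAD2 sit on axes that are not yet synapsed, SYCP1 forms the transverse filaments, and SYCE1, SYCE2 and TEX12 belong to the central element between them. TERB1 attaches telomeres to the nuclear envelope. In the female mouse, germ cells enter meiosis in the fetal ovary and oocytes arrest in the dictyate stage around birth, after the complex has come apart.

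The signals are linear intensities in arbitrary units, with each array scaled by the authors, and the values of a stage are listed in order of array number. Across the ovary arrays the median of all signals was 116.05, and a probe set was tested where its mean passed that value in at least 1 stage. No detection call was used, so signals below 116.05 are described as low and not as absent. Changes are differences of log2(signal + 31.48) with standard errors from limma, tested with Benjamini-Hochberg adjustment over 26431 probe sets and called at an adjusted p under 0.05. Levels of different genes are not compared, since probe sets differ in how they respond. The p-values measure the spread between the samples of a stage, which came from separate dams apart from the gd11 pair named above. In whole-ovary RNA, fewer germ cells and less RNA per germ cell cannot be told apart.

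Arrays 7 and 16 stood apart from the others of their stage. At gd16, Xist, the non-coding RNA of the inactive X chromosome, read 44.79 on array 7 against 13914 and 16238 on arrays 8 and 9, while at the other stages it read from 11306 to 18576. Signals of the Y-linked genes Eif2s3y, Kdm5d and Uty were too low at every stage to pass the filter. At gd11 the neuronal gene Stmn2 read 7965 on array 16 against 227 and 291 on the other arrays. The gd12 arrays also differed in nervous tissue markers, which summed to 8245 on array 13 against 1207 and 1952 on arrays 14 and 15. Counts of the gene lists were not made without array 13. Calls of the 9 genes that were lost or gained without array 7 or array 16 are given with and without it. Markers of ovarian supporting cells were above 116.05 for 9 to 11 of 11 genes on the gd11 arrays and for all 11 on each later array, and markers of germ cells for 5 to 8 of 11 at gd11 and 8 to 10 from gd12 on. The ratio of 3′ to 5′ Gapdh signal, a measure of RNA length, lay between 2.99 and 3.28 at gd11, 4.09 and 4.96 at gd14, 4.28 and 5.59 at gd16 and 5.07 and 5.41 at pnd2, and its part in the changes below was not tested.

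The 9 genes were low at gd11, with the exception of Syce2, rose together to gd14, and then took separate courses. All 9 changed over the 6 stages in limma's moderated F test, where 68.1% of all 12566 genes tested did, with adjusted p from 2.46e-12 for Tex12 to 7.05e-05 for Hormad2. Without Hormad2, which passed the filter through gd14 alone, the highest adjusted p of this test was 4.48e-08, for Syce2. The highest mean fell at gd14 for 8 genes, which the filter fixed for Hormad2, and at gd18 for Sycp1. Relative to its own highest stage, the pnd2 mean was 90.5% for Sycp3, 55.5% for Syce2 and 50.7% for Syce1, against 9.20% for Sycp2, 10.8% for Tex12 and 11.4% for Hormad1. The axis partners Sycp2 and Sycp3 therefore stood at opposite ends of this range.

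**Figure D1:**
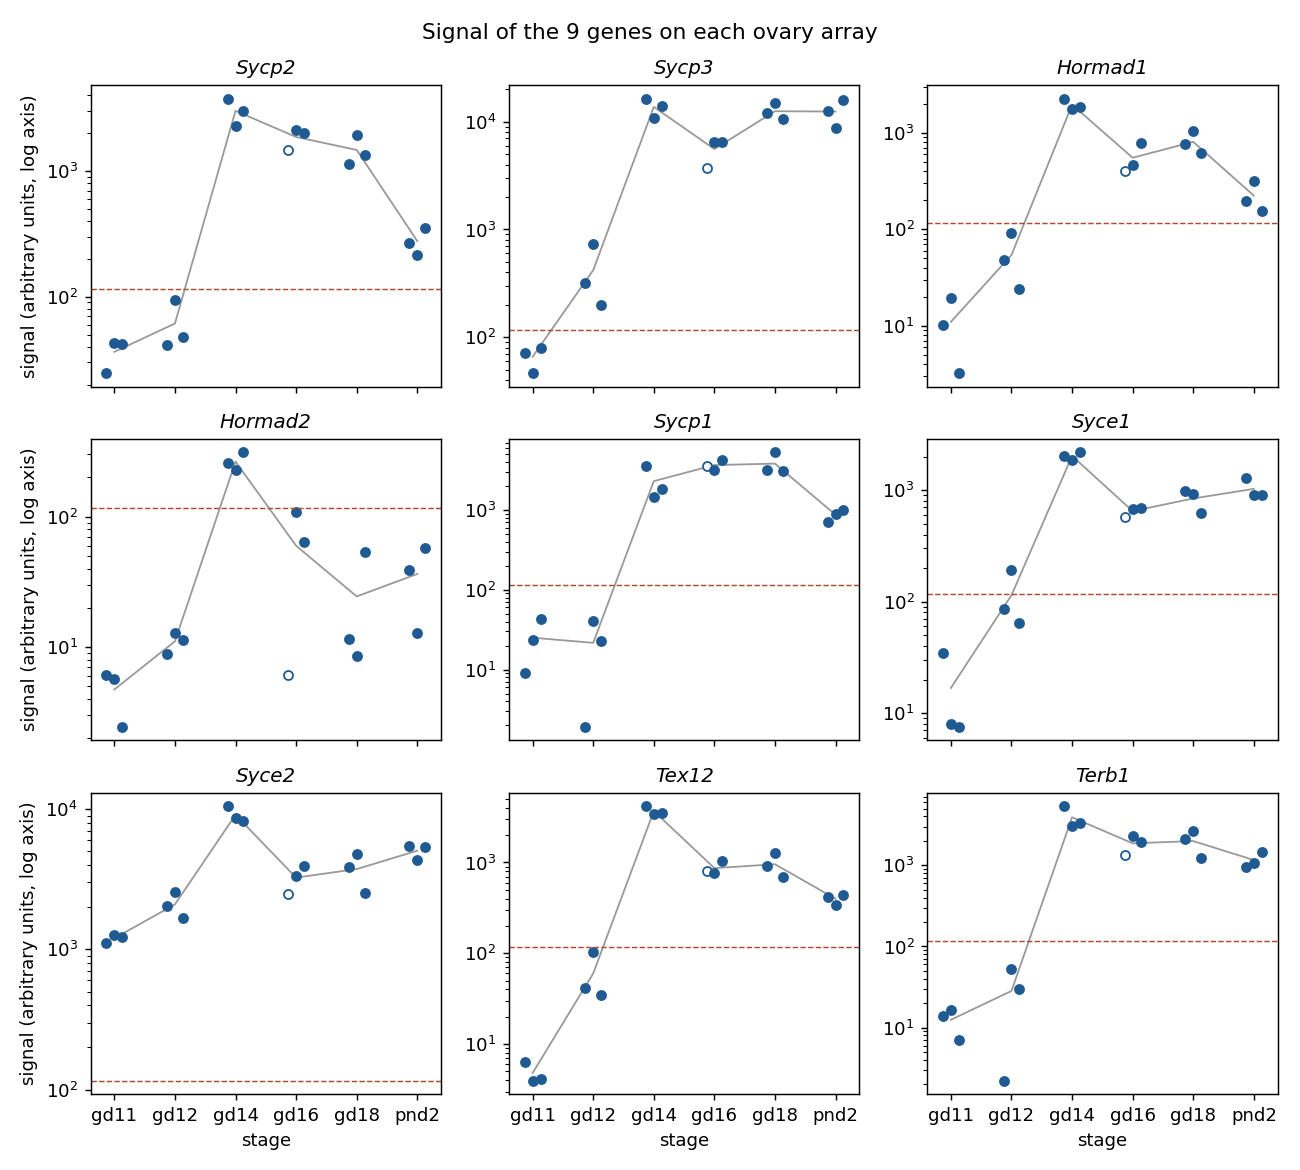
Signal of each of the 9 genes (arbitrary units, log axis) on the 18 ovary arrays by stage; points are single arrays, lines join stage means, the open circle is gd16 array 7 and the dashed line is the median of all signals, 116.05. All 9 genes are highest at gd14 or gd18. Sycp3 is lower at gd16 and near its gd14 level at gd18 and pnd2, while Sycp2 drops to between 213 and 351 at pnd2.

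From gd11 to gd12, when germ cells have settled in the gonad, 4 of the 9 genes rose and none fell, against 3.29% of all genes called higher and 1.42% lower. Sycp3 read 71.5, 46.8 and 79.7 at gd11 and 319, 738 and 201 at gd12, a change of 2.04 ± 0.33 (adjusted p = 0.00139). Its gd12 arrays were all above its gd11 arrays and differed among themselves, array 14 being the highest. Syce1 read 34.9, 7.98 and 7.55 at gd11 and 85.7, 192 and 64.8 at gd12 (1.54 ± 0.27, adjusted p = 0.00308). Tex12, whose gd11 signals were 6.33, 3.97 and 4.13, read 41.5, 104 and 34.8 at gd12 (1.26 ± 0.24, adjusted p = 0.00576). These early signals of Syce1 and Tex12 lay around or under 116.05, where a change of log2(signal + 31.48) understates the change of signal. With only the gd11 and gd12 arrays in the fit neither was called (adjusted p = 0.0764 for Syce1 and 0.0878 for Tex12), nor was Tex12 with the median signal as pseudocount (0.52, adjusted p = 0.128).

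Syce2 differed from the others in being well above 116.05 at gd11 already, at 1106, 1277 and 1218, and it read 2039, 2579 and 1663 at gd12 (0.77 ± 0.21, adjusted p = 0.0437). This call was lost without gd11 array 16 (0.71, adjusted p = 0.131), which left 3 genes called, and also without any other array of the comparison but gd12 array 15. Hormad1 and Hormad2 were not called (Hormad1 was without gd12 array 15, at 1.23, adjusted p = 0.0378), though for 6 of the 9 genes, these included, all gd12 arrays were above all gd11 arrays, as they were for 13.3% of genes tested. Sycp1, Sycp2 and Terb1 overlapped between the stages, with changes of -0.12 ± 0.32, 0.42 ± 0.25 and 0.35 ± 0.32. On array 14 all 9 genes had their highest gd12 signal, and the germ cell markers summed to 14750.4 there against 8930.43 and 4885.85 on arrays 13 and 15. Ddx4, an RNA helicase of germ cells, read 2982, 1389.9 and 581 on arrays 14, 13 and 15, while supporting cell markers summed to 44391, 17610.1 and 26692 and nervous tissue markers to 1207, 8245 and 1952 on the same arrays. The part of tissue content in the gd12 spread was not tested.

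Between gd12 and gd14 all 9 genes rose, where 11.6% of all genes were called higher and 8.03% lower, and the median change was 5.05 against -0.02 over all genes. In each of the 9 genes all gd14 arrays were above all gd12 arrays, as for 20.6% of genes tested. Of the axis genes, Sycp2 went from 41.2, 95 and 47.4 to 3769.8, 2291 and 2982 (5.05 ± 0.25, adjusted p = 3.01e-10). Sycp3 reached 16380.1, 10931 and 13893 (5.09 ± 0.33, adjusted p = 5.78e-09). Sycp2 started under 116.05, where the log2 change understates the rise in signal, and Sycp3 did not.

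Hormad1, which marks axes before synapsis and helps to recruit the recombination machinery, went from 47.8, 90.5 and 24.2 to 2259, 1750.0 and 1851 (4.60 ± 0.30, adjusted p = 5.9e-09). Its relative Hormad2 went from 8.87, 12.9 and 11.4 to 257, 227 and 311 (2.79 ± 0.42, adjusted p = 0.000127). Hormad2 was above 116.05 on the gd14 arrays alone among all 18, so its later values describe low signals. It passed the filter on low signals through gd14 alone, which fixes that gd14 is its highest stage, and among the other 8 genes 8 rose to gd14 and 6 fell to gd16.

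Sycp1, the transverse filament gene, was low at gd12, with 1.92, 40.1 and 22.8, and reached 3599, 1473 and 1843 at gd14 (5.42 ± 0.32, adjusted p = 1.94e-09). Its gd14 arrays were spread, array 10 standing above the other arrays. Terb1 showed the same order of arrays, from 2.23, 53 and 29.8 at gd12 to 5321, 3033 and 3353 at gd14 (6.09 ± 0.32, adjusted p = 4.11e-10). The second Terb1 probe set went from 50.1, 35.3 and 67.5 to 2401, 1243 and 1668 (4.42 ± 0.24, adjusted p = 7.34e-10). The probe sets of Terb1 thus gave the same direction and call with different sizes.

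Among the central element genes, Tex12 reached 4148, 3406 and 3482 (5.41 ± 0.24, adjusted p = 1.62e-10). Syce1 reached 2021, 1881 and 2177 (3.92 ± 0.27, adjusted p = 1.38e-08). Syce2, which started from its earlier level, reached 10474, 8625 and 8225 (2.12 ± 0.21, adjusted p = 1.03e-06). In the F test and in this step, Tex12 had the smallest adjusted p of the 9 genes. The part of germ cell content in the rise was not tested: over the same days the summed germ cell markers went from between 4886 and 14750.4 to between 38618 and 46004, and Ddx4 rose by 2.56 ± 0.38.

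**Figure D2:**
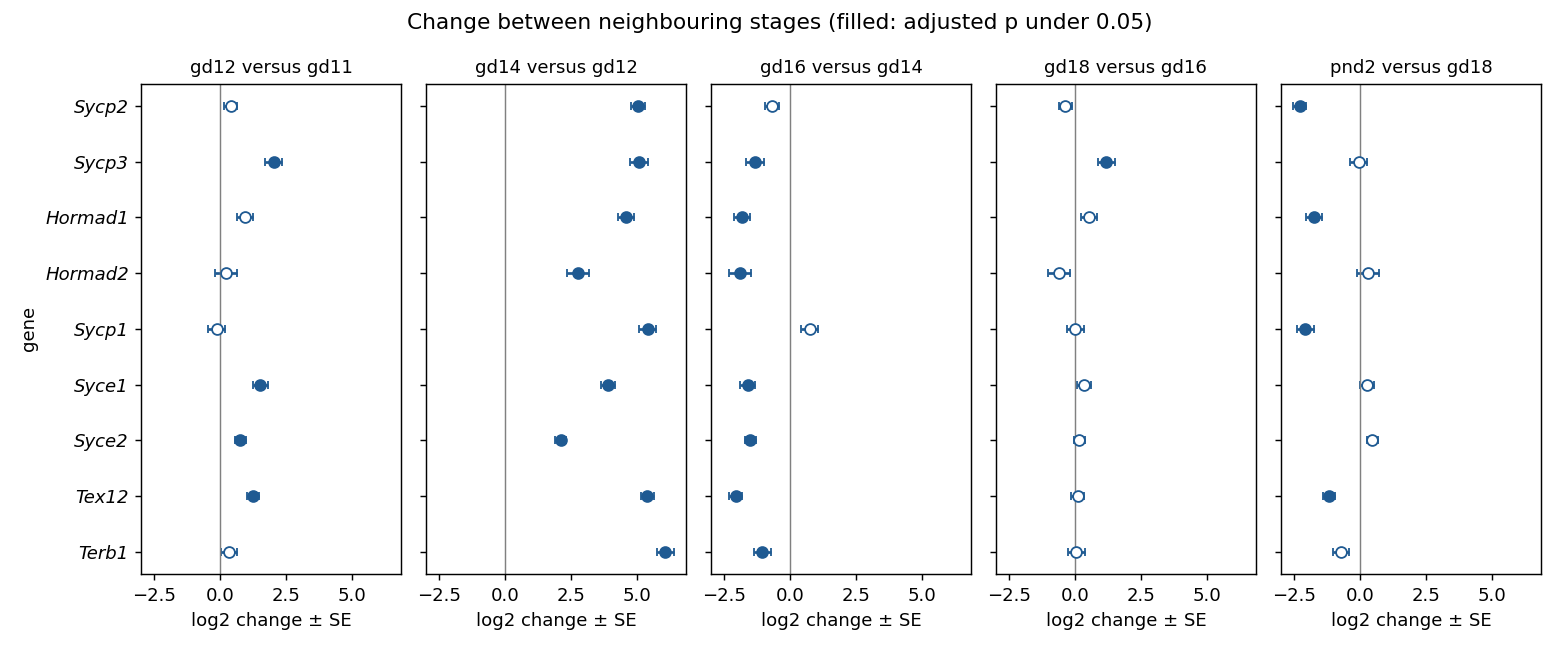
Change of each gene between neighbouring stages (log2 of signal + 31.48, later minus earlier stage; points with standard errors, filled where the adjusted p was under 0.05). All 9 points are filled and above 0 for gd14 versus gd12, and 7 are filled and below 0 for gd16 versus gd14.

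Since the 9 genes rose together, the letters before their start sites are shown for those genes that hold a motif of a factor known from meiotic entry. The windows, 250 bases before to 50 after each annotated start, come from RefSeq (GRCm38.p6); all 9 genes matched by symbol, with 11 windows, and 27025 genes have windows in all. Both strands were searched for CACGTG, an E-box read by MAX with its MYC and MGA partners, CNCCTCAG, the motif of STRA8 with MEIOSIN, GGCGGGAA, an E2F motif, and TGACGTCA, a cyclic AMP response element. CACGTG was found in 5 of 9 genes (Sycp1, Sycp3, Syce2, Tex12 and Hormad1) and in 8.09% of all genes, CNCCTCAG in 4 of 9 (Sycp1, Syce2, Tex12 and Hormad2) and in 9.12%, GGCGGGAA in 3 of 9 (Syce2, Tex12 and Hormad1) and in 2.52%, and TGACGTCA in none of the 9 and in 2.03%. By windows of equal length these shares were 7.15%, 7.94%, 2.19% and 1.79%. Sycp2, Syce1 and Terb1 held none of these letters in their windows. The stretches below are the 150 bases before the start on the gene's strand, with motif matches in capitals.
Sycp3, chr10:88459437-88459586, + strand: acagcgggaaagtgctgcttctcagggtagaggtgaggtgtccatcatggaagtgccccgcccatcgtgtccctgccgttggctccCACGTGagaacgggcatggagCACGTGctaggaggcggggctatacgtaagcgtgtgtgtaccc
Hormad1, chr3:95559527-95559676, + strand: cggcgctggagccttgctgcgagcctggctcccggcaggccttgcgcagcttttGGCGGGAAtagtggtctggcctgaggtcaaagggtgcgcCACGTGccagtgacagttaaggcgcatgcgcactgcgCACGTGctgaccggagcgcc
Hormad2, chr11:4441083-4441232, - strand: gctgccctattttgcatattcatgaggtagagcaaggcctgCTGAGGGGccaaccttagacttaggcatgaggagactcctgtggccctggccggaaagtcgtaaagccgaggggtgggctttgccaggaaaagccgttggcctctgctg
Sycp1, chr3:102936101-102936250, - strand: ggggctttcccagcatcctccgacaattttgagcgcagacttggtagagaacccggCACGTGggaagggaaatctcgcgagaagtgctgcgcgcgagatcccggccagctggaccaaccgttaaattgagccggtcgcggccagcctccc
Syce2, chr8:84872108-84872257, + strand: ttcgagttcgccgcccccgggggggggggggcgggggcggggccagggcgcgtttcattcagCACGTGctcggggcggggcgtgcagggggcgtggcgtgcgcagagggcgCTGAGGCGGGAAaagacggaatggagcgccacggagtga
Tex12, chr9:50561269-50561418, - strand: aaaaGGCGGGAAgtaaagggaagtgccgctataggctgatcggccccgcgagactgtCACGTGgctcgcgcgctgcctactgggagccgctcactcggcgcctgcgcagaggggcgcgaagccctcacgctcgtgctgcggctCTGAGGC

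Both E-boxes of Sycp3 begin 64 and 43 bases before the start, and those of Hormad1 begin 57 and 20 bases before it. The E-boxes of Sycp1, Syce2 and Tex12 begin 94, 88 and 93 bases before the start. The CNCCTCAG match of Sycp1 begins 33 bases past the start, outside the printed stretch, that of Tex12 runs 1 base past the end of the stretch, and that of Syce2 overlaps its GGCGGGAA match. For Syce2 the matches belong to 1 of 2 annotated starts, and the other window held none. The 11 stretches of 150 bases had a GC content of 56.7 to 75.3% and 4 to 20 CpG sites, against medians of 54% and 4 over all windows. A match describes letters only, and no binding was measured here.

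**Figure D3:**
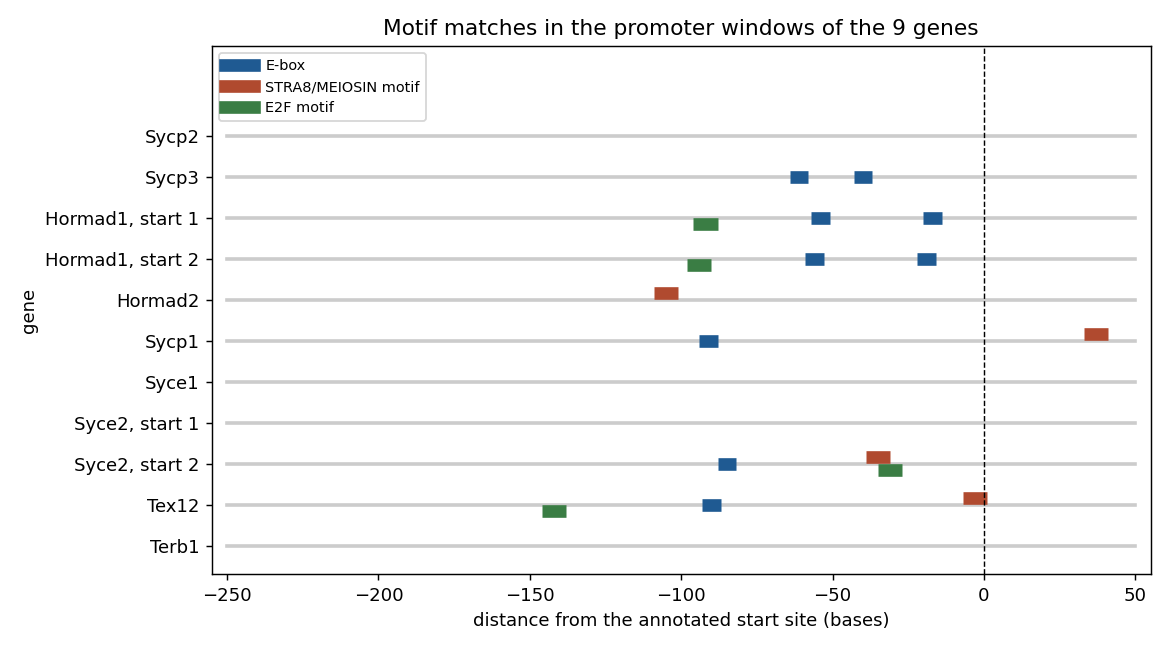
Motif matches by distance from the annotated start site (bases) in the 11 promoter windows of the 9 genes; grey lines are the windows, boxes the matches, coloured by motif. E-boxes lie within 94 bases before the start in all 5 genes that hold one.

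By gd16, 7 of the 9 genes were lower than at gd14, where 9.77% of all genes were called lower and 11.4% higher, and the median change was -1.49 against 0.09 over all genes. Tex12 fell to 802, 765 and 1032 (-2.05 ± 0.24, adjusted p = 2.63e-05). Syce2 fell to 2500.4, 3315 and 3929 (-1.49 ± 0.21, adjusted p = 0.000111) and Syce1 to 571, 681 and 693 (-1.60 ± 0.27, adjusted p = 0.000586). The central element genes were thus at 23.6%, 35.7% and 32.0% of their gd14 means. For each, the gd16 arrays were all below the gd14 arrays.

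Hormad1 fell to 404, 459.8 and 789.9 (-1.82 ± 0.30, adjusted p = 0.000447) and Hormad2 to 6.08, 109 and 64.5 (-1.88 ± 0.42, adjusted p = 0.00422). Array 7 was the lowest gd16 array for both. Sycp3 fell to 3756, 6463 and 6505 (-1.32 ± 0.33, adjusted p = 0.00902) and Terb1 to 1349, 2309.5 and 1931 (-1.04 ± 0.32, adjusted p = 0.0281), with array 7 again the lowest. The second Terb1 probe set fell by 0.78 ± 0.24 (adjusted p = 0.0295). Without array 7 the calls of Sycp3 (-1.06, adjusted p = 0.0517) and Terb1 (-0.83, adjusted p = 0.119) were lost and 5 genes remained lower, namely Syce1, Syce2, Tex12, Hormad1 and Hormad2. Array 7 was the lowest gd16 array in 7 of the 9 genes. The call of Terb1 was also lost without gd14 array 10 (-0.80, adjusted p = 0.124) or gd14 array 12 (-1.13, adjusted p = 0.0537).

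Sycp1 and Sycp2 were not called in this step. Sycp1 read 3550.1, 3214 and 4233 at gd16, overlapping gd14 through array 10, and changed by 0.76 ± 0.32 (adjusted p = 0.103, 95% interval 0.09 to 1.42). Without gd14 array 10 it was called higher, by 1.13 (adjusted p = 0.0204). Sycp2 read 1461, 2141 and 2000.3, below each of its gd14 arrays, and changed by -0.67 ± 0.25 (adjusted p = 0.0707, 95% interval -1.20 to -0.14), and without gd14 array 11 it was called lower (-0.85, adjusted p = 0.0488). In all, 8 of the 9 genes had every gd16 array below every gd14 array, as did 15.5% of genes tested. Sycp1 was the exception. The difference between Sycp1 and the other genes in this step was not tested.

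From gd16 to gd18 Sycp3 alone was called, where 4.94% of all genes were called higher and 3.25% lower. It rose from 3756, 6463 and 6505 to 12093, 14792 and 10685 (1.19 ± 0.33, adjusted p = 0.0308), all gd18 arrays being above all gd16 arrays, as for 12.3% of genes tested. This call was lost without gd16 array 7 (0.93, adjusted p = 0.141), without gd18 array 4 (1.21, adjusted p = 0.0787) and without gd18 array 5 (1.07, adjusted p = 0.112). Sycp1 read 3144, 5273 and 3059, Sycp2 1133, 1929 and 1354 and Hormad1 761, 1038 and 618. Each of these overlapped its gd16 arrays, and their changes were 0.02 ± 0.32, -0.35 ± 0.25 and 0.55 ± 0.30. The central element genes changed by 0.34 ± 0.27 (Syce1), 0.18 ± 0.21 (Syce2) and 0.10 ± 0.24 (Tex12), and Terb1 by 0.06 ± 0.32. Hormad2 read 11.5, 8.55 and 53.3, low on every gd18 array. Array 5 was the highest gd18 array in 7 of the 9 genes and had the largest germ cell marker sum, 37580 against 28058 and 22970 on arrays 4 and 6.

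After birth, 4 of the 9 genes were lower at pnd2 than at gd18, where 6.9% of all genes were called lower and 8.48% higher. Sycp2 fell to 267, 213 and 351 (-2.27 ± 0.25, adjusted p = 1.05e-05) and Sycp1 to 712, 902 and 1001 (-2.06 ± 0.32, adjusted p = 0.000278). Hormad1 fell to 199, 316 and 155 (-1.74 ± 0.30, adjusted p = 0.000745) and Tex12 to 420.3, 337 and 438 (-1.16 ± 0.24, adjusted p = 0.00346). By the probe sets that stand for the genes, in these 4 and in no other of the 9, all pnd2 arrays were below all gd18 arrays, as for 17.8% of genes tested. They belong to the axis, the transverse filament, the HORMA pair and the central element.

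The other 5 genes were not called. Sycp3 read 12565, 8735 and 15993 at pnd2 and changed by -0.04 ± 0.33 from gd18 (95% interval -0.73 to 0.64). Syce1 read 1285, 898 and 899 (0.28 ± 0.27, 95% interval -0.29 to 0.85) and Syce2 5418, 4359 and 5387 (0.47 ± 0.21, 95% interval 0.04 to 0.91, adjusted p = 0.147). Terb1 read 965, 1057 and 1459 (-0.71 ± 0.32, adjusted p = 0.15). Its second probe set changed by -0.71 ± 0.24 (adjusted p = 0.0576), with all pnd2 arrays below all gd18 arrays. Hormad2, low on every gd18 array already, stayed low, at 38.8, 12.7 and 57.6. A missed threshold does not show that these genes held their level.

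**Figure D4:**
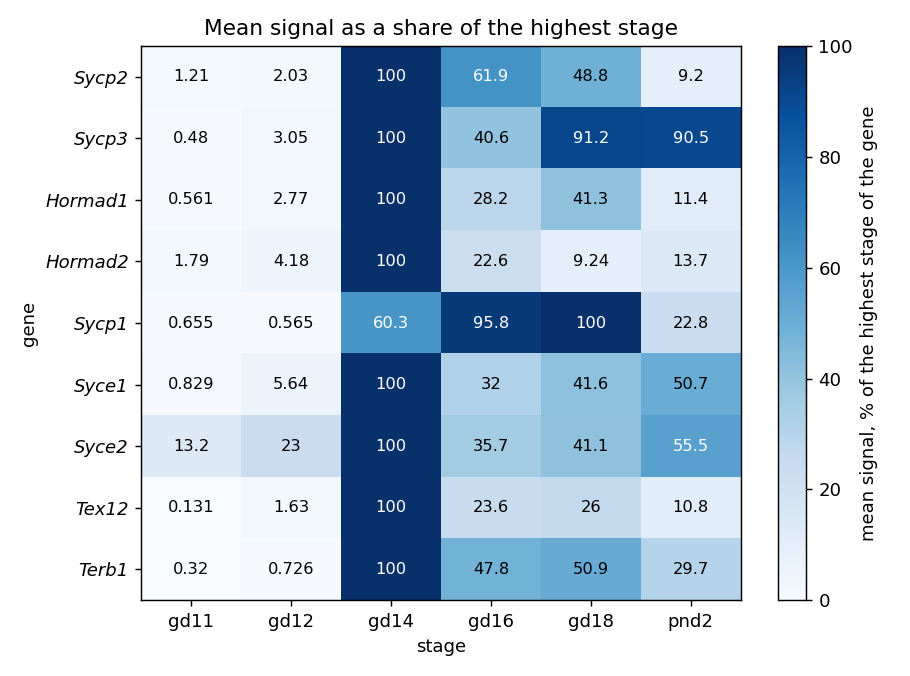
Mean signal of each gene at each stage as a percentage of the mean at its highest stage, printed in each square and shown by colour. At pnd2 the shares run from 9.20% for Sycp2 to 90.5% for Sycp3, while at gd11 they are under 2% for all genes but Syce2.

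Across the whole of prophase, 8 of the 9 genes were lower at pnd2 than at gd14 (background 15.1% lower, 17.8% higher). Hormad2 was among them, and it passed the filter through gd14 alone, which fixed its place below gd14. Of the other 8 genes, all but Sycp3 were called lower. The changes were -3.30 ± 0.25 for Sycp2, -3.11 ± 0.24 for Tex12 and -3.00 ± 0.30 for Hormad1, then -2.17 ± 0.42 for Hormad2, -1.70 ± 0.32 for Terb1 and -1.28 ± 0.32 for Sycp1. Syce1 and Syce2 changed by -0.98 ± 0.27 and -0.84 ± 0.21, with adjusted p = 0.0104 and 0.00469. Sycp3 changed by -0.17 ± 0.33 (95% interval -0.85 to 0.52), and its arrays of these stages overlapped. At gd18, 7 of the 9, Hormad2 again among them, were below gd14 (background 7.05% lower, 8.45% higher). The genes not called were Sycp1 and Sycp3. Without gd14 array 10, Sycp1 was called higher there (1.15, adjusted p = 0.0252) and Sycp2 was not called (-0.85, adjusted p = 0.0622), nor was Sycp2 without gd18 array 4 (-0.86, adjusted p = 0.0621). Against gd11, 8 of the 9 were still higher at pnd2 (background 26.3% higher, 20.6% lower), with 6.97 ± 0.33 for Sycp3 and 2.17 ± 0.25 for Sycp2; Hormad2 was not called (0.85 ± 0.42, adjusted p = 0.11) unless gd16 array 7 was left out, when all 9 were.

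The order of the stages differed between genes, and several neighbours in it could not be separated. In Sycp1, gd18, gd16 and gd14 headed the order with no call between neighbours, and pnd2 followed, lower than gd14 by 1.28 ± 0.32. In Sycp2, gd14, gd16 and gd18 were not separated from their neighbours, and pnd2 lay 2.27 ± 0.25 below gd18. In Sycp3, gd14, gd18 and pnd2 were not separated, and gd16 lay 1.15 ± 0.33 below pnd2 (adjusted p = 0.0118). Without gd16 array 7 that last difference was 0.89 (adjusted p = 0.0683), so the call rested on array 7, while the other gd16 arrays were still below every gd14, gd18 and pnd2 array. In Syce1 and Syce2, gd14 was highest, and pnd2, gd18 and gd16 followed with no call between neighbours. Between pnd2 and gd16 directly, Sycp3 and Syce2 were called higher and Sycp1, Sycp2, Tex12 and Hormad1 lower (background 16.1% higher, 17.2% lower), and without array 7 Syce2 was not called either (0.48, adjusted p = 0.121). In Tex12 and Hormad1, gd14 was highest, gd18 and gd16 were not separated, and pnd2 lay 1.06 ± 0.24 and 1.19 ± 0.30 below gd16. In Terb1, gd14 stood above gd18 by 0.99 ± 0.32 (adjusted p = 0.0469), a call lost in 18 settings, among them leaving out gd14 array 10 or gd18 array 6, and the 3 later stages were not separated from their neighbours. The second Terb1 probe set was called lower at gd18 than at gd14 (-1.05 ± 0.24, adjusted p = 0.00657). It had gd16 above gd18, with no call between them (0.27 ± 0.24, adjusted p = 0.536). Hormad2 was low at every stage but gd14, the stage through which it passed the filter.

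Germ cell markers moved with these genes in part, and their part in the changes was not tested. The summed signal of 11 germ cell markers was lowest at gd11 (1953 to 2691) and gd12 (4886 to 14750.4) and highest at gd14 (38618 to 46004). It was 16389 to 19545 at gd16, then 22970 to 37580 on the gd18 arrays and 23096 to 29596 on the pnd2 arrays. The mean log2 value of the same 11 markers was as high on the pnd2 arrays (10.08 to 10.47) as on the gd14 arrays (9.90 to 10.26), with 9.25 to 9.39 at gd16. Of 10 tested, 9 were higher at gd12 than at gd11 (7 without gd11 array 16), 5 rose and 2 fell to gd14, 5 fell to gd16 and 2 rose in each later step (3 from gd18 to pnd2 without array 16). Ddx4 fell from 8200.4 ± 1485 at gd14 to 3287 ± 237 at gd16 (mean ± SD, n = 3; -1.30 ± 0.38, adjusted p = 0.0235), and Dazl, an RNA-binding protein of germ cells, from 10372 ± 1460.0 to 3515 ± 154 (-1.54 ± 0.40, adjusted p = 0.0124). Of the 9 genes, Sycp1 had a higher mean at gd16 than at gd14. From gd18 to pnd2 Ddx4 was not called (-0.64 ± 0.38, adjusted p = 0.295), and markers of oocytes in primordial follicles rose for 6 of 12 genes.

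The difference between each gene and Ddx4 on the same array was therefore followed over stages, as a description with no test. Between gd11 and gd12 this difference fell for all 9 genes, as from -1.12 to -1.80 for Sycp3. Against the mean log2 value of the germ cell markers on the same array, Sycp3 rose instead, from -0.80 to -0.45, and the other genes of the 9 fell. Between gd12 and gd14 the difference from Ddx4 rose by 3.53 for Terb1, 2.86 for Sycp1, 2.85 for Tex12, 2.53 for Sycp3, 2.49 for Sycp2, 2.04 for Hormad1 and 1.35 for Syce1. It changed by 0.23 for Hormad2 and -0.44 for Syce2. Against the marker mean each of the 9 genes rose in this step, Syce2 from 1.95 to 3.07. Signals before gd14 were mostly below 116.05, where these values depend on the pseudocount. From gd14 to gd16 the difference from Ddx4 changed by -0.02 for Sycp3, -0.20 for Syce2, -0.30 for Syce1 and 0.26 for Terb1, so these genes moved nearly in step with Ddx4. It changed by 2.06 for Sycp1 and 0.63 for Sycp2, and by -0.76 for Tex12, -0.52 for Hormad1 and -0.59 for Hormad2. The Hormad2 value rested on low gd16 signals and on array 7, where the difference was -6.49. On arrays 8 and 9 the Hormad2 difference was -4.44 and -5.20, against a gd14 mean of -4.79. From gd14 to pnd2 the difference from Ddx4 changed by 1.37 for Sycp3, 0.69 for Syce2 and 0.56 for Syce1, and by -1.76 for Sycp2, -1.57 for Tex12 and -1.46 for Hormad1. The rises depended on the marker, since against the marker mean each of the 9 genes was lower at pnd2 than at gd14. Sycp3 went from 3.65 to 3.29 by that measure, Syce2 from 3.07 to 2.03 and Syce1 from 0.92 to -0.24. For Sycp1 and Terb1 the difference from Ddx4 at pnd2 was near that at gd14, with changes of 0.26 and -0.16. This too depended on the marker, since both fell against the marker mean, Terb1 from 1.81 to -0.07 and Sycp1 to -0.46. Subtracting Ddx4 or the marker mean leaves the differences between the 9 genes on an array as they were. These values therefore place each gene against Ddx4 or the marker mean only.

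**Figure D5:**
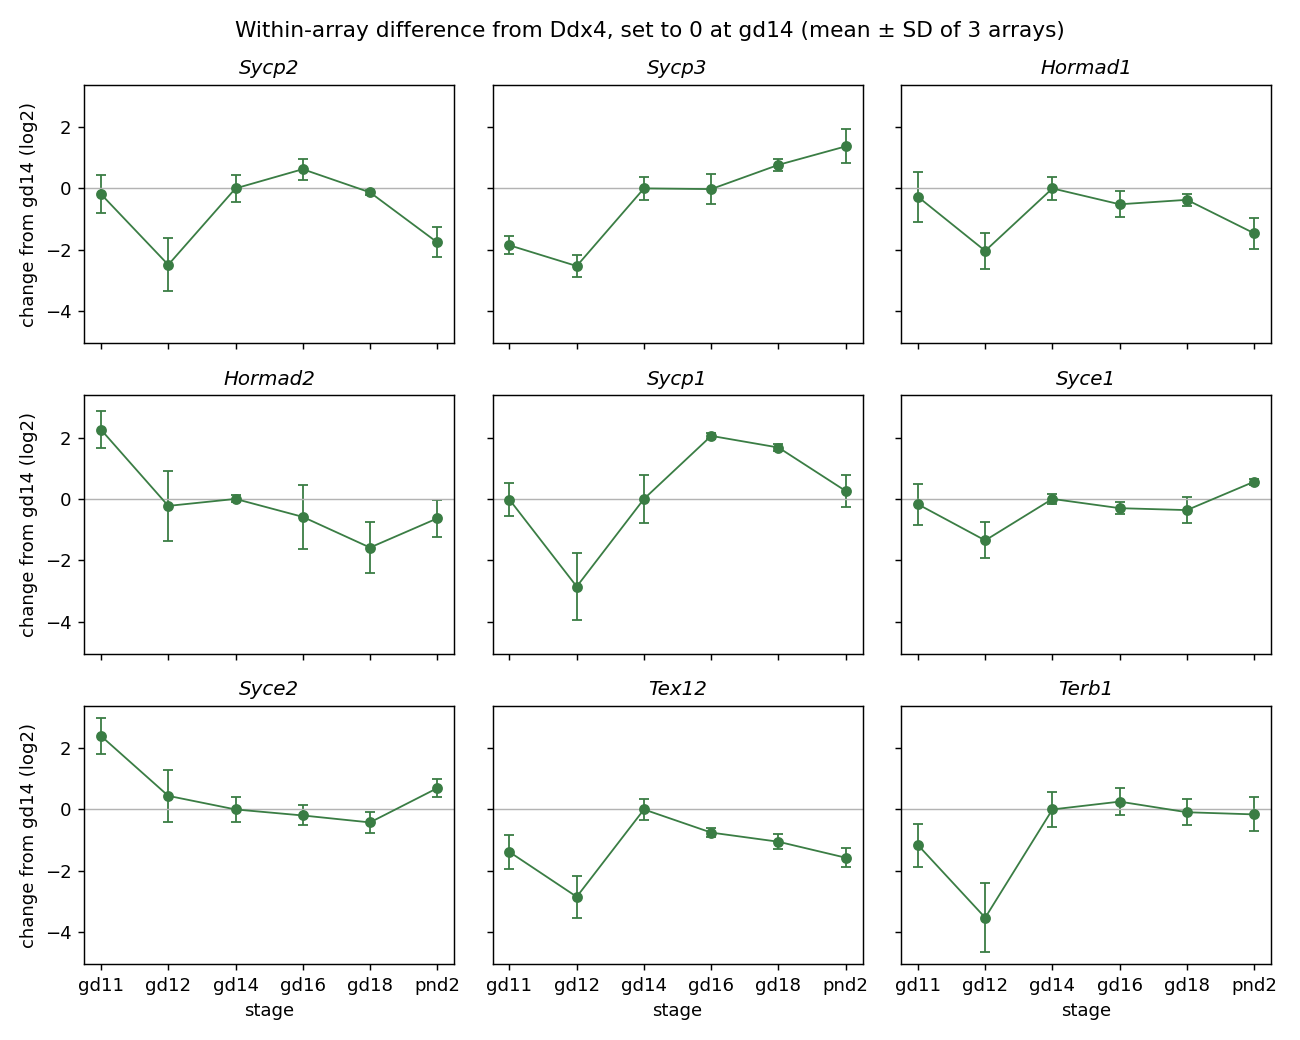
Log2 value of each gene minus that of Ddx4 on the same array, shown as the change from the gd14 mean (points are means of 3 arrays, bars their SD). At pnd2 Sycp3 is 1.37 above its gd14 difference and Sycp2 is 1.76 below it.

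Over all 18 arrays the 36 pairs of the 9 genes correlated with a median Pearson r of 0.895 (0.515 to 0.985). Over the 12 arrays from gd14 on the median was 0.618, from -0.302 for Sycp1 with Syce1 to 0.950 for Syce1 with Syce2. Tex12 and Hormad1 came next to the top at 0.942. All pairs share the same arrays and RNA, and no test was made. From gd14 on, Tex12 correlated with Syce1 and Syce2 of the same element at 0.714 and 0.678, and with Terb1 and Sycp2 at 0.915 and 0.845.

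Other genes of the machinery gave a like time course in part. Of 25 further genes of the synaptonemal complex, axis, cohesin core and telomere attachment, 21 had a probe set and 20 were tested. From gd11 to gd12, 5 rose, which was 1 without gd11 array 16. To gd14, 12 rose and 1 fell. The meiotic cohesin subunit Smc1b rose by 4.69 ± 0.43, the telomere-bound kinase activator Spdya by 4.67 ± 0.27, Majin, which works with TERB1 at the nuclear envelope, by 4.25 ± 0.30, and Six6os1 of the central element, listed as 4930447C04Rik, by 4.21 ± 0.33. To gd16, 10 fell and 1 rose. Rec8, a meiotic cohesin subunit, fell most (-2.54 ± 0.40), followed by Spdya (-1.78 ± 0.27), Mei4, which acts in break formation (-1.70 ± 0.32), and Terb2, the partner of TERB1 (-1.42 ± 0.30). The gene that rose, named after its value was seen, was Syce3 of the central element (0.93 ± 0.30, adjusted p = 0.0359), and without gd16 array 7 none rose and 9 fell.

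From gd16 to gd18, 2 of these 20 genes rose, Sycp2l, a relative of SYCP2 found in oocytes (2.54 ± 0.49), and the cohesin subunit Rad21 (1.43 ± 0.16), and 1 fell, a call lost without gd16 array 7. From gd18 to pnd2, 6 fell and 1 rose. Six6os1, listed as 4930447C04Rik, fell from 1507 ± 122 to 212 ± 102 (-2.76 ± 0.33), Syce3 by 1.96 ± 0.30 and Majin by 1.70 ± 0.30, while Sycp2l rose from 225 ± 98.8 to 907 ± 75.7 (1.94 ± 0.49). Sycp2l was thus higher at pnd2 while its relative Sycp2 was lower. The median change of the 20 genes was 1.55 to gd14, -0.83 to gd16, -0.18 to gd18 and -0.31 to pnd2, against -0.02, 0.09, -0.03 and -0.03 over all genes.

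Of 32 genes of meiotic recombination, 22 were tested. From gd11 to gd12, 5 rose, to gd14 16 rose, to gd16 11 fell (10 without gd16 array 7) and 1 rose, to gd18 2 fell, Dmc1 and Mre11a, neither of which was called without gd16 array 7, and to pnd2 6 fell and 2 rose. Tex11 (4.31 ± 0.30), Meiob (4.05 ± 0.23), the recombinase Dmc1 (3.82 ± 0.26) and Msh4 (3.30 ± 0.22) rose most to gd14. Prdm9, which marks recombination hotspots (-1.69 ± 0.29), Hells (-1.59 ± 0.17), Dmc1 (-1.42 ± 0.26) and Meiob (-1.25 ± 0.23) fell most to gd16, and Spo11, which makes the breaks, fell most to pnd2 (-2.23 ± 0.33). Of 10 tested regulators of meiotic entry, 3 rose to gd12, 5 rose and 3 fell to gd14, 3 fell to gd16 and 2 fell to pnd2. From gd16 to gd18, limma called 0 of them, with 2 at an unadjusted p under 0.05. Stra8, which licenses meiotic entry, rose by 5.11 ± 0.47 to gd14 and fell by 4.97 ± 0.47 to gd16, to 70.1 ± 43.4 (mean ± SD, n = 3), while all 9 structural genes but Hormad2 stayed above 116.05 at that stage. Meioc, which acts on the transcripts of meiosis, rose by 5.88 ± 0.43 and fell by 2.11 ± 0.43.

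The genes with the time course most like the mean course of the 9, by Pearson correlation over the 18 arrays, were Gpat2 (0.987), Meiob (0.985), Tex11 (0.984), Atr (0.982), Tc2n (0.981), Ccdc172 (0.981), Fmr1nb (0.974) and Rundc3b (0.971). Of the 9 themselves, Tex12 followed the mean course most closely (0.992) and Hormad2 least (0.766), though the mean course holds each of these genes itself. By the median correlation with the other genes of the 9, Terb1 came first (0.946), then Tex12 (0.933), and Hormad2 last (0.699). Taken singly, Sycp3 was most like Mael (0.983), a gene of the piRNA pathway, Tex12 and Hormad1 were most like Meiob (0.992 and 0.982), Sycp1 was most like Tktl1 (0.985) and Syce2 most like Spata5 (0.983). These values share arrays and RNA and describe likeness over these samples only.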

How the data were processed

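Biotin-labelled RNA of 18 ovary samples and 1 reference sample, after 2 rounds of amplification, was hybridised to Affymetrix Mouse430_2 arrays, per the labels' protocols. The deposited intensities are linear signals that the authors made with GCOS, per the submitters' processing notes, with a version and settings not given in the sources used here. Each array has a 2% trimmed mean of 500.003, and values ran from 0.07 to 90180.45 over 45101 probe sets, so they were used as deposited. Arrays have no read depth, and their number, 3 a stage, limits the precision.

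Probe sets were named through GEO's platform annotation: 34945 have 1 gene, 932 several and 9160 none, and 64 controls were left out. Signals were analysed as log2(signal + 31.48), the pseudocount being the 25th percentile of the ovary values. Probe sets with a stage mean above the median, 116.05, were tested (26431, of 12566 genes). limma 3.58.1 (R 4.3.3) was fitted to the 18 ovary arrays with a term per stage, 12 residual degrees of freedom and a mean-variance trend in eBayes; tests were two-sided with Benjamini-Hochberg adjustment over all probe sets tested. The fit was tested on simulated data. The reference array was in no fit.

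The 9 genes, the lists and the tests were chosen with earlier results of these data known. All 9 are named in each comparison, along with up to 4 called genes per pathway list by size of change, and the 8 genes most alike. Promoter sequences are RefSeq's (GRCm38.p6); the array files name no build. Alternatives changed the pseudocount, normalization, filter, arrays in the fit, trend, array weights, treatment of the gd11 pair of 1 dam, threshold and probe sets of a gene, and left out each array. Counts of the lists without gd16 array 7 or gd11 array 16 were added after seeing the data.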

Additional observations from a re-analysis of the deposited data

How the results depend on the processing

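No count changed direction, and the 9 genes were called higher from gd12 to gd14 without any 1 array. With other settings than leaving out an array, the count of genes called from gd11 to gd12 was 2 with the median as pseudocount and 1 with only the arrays compared in the fit, against 4. The count from gd16 to gd18 was 0 with no mean-variance trend, against 1 (1 gene had an unadjusted p under 0.05 in the fit with the trend). Leaving out each array in turn gave 3 to 5 genes from gd11 to gd12, 5 to 8 from gd14 to gd16, 0 to 1 from gd16 to gd18, 4 to 4 from gd18 to pnd2, 5 to 7 for gd18 against gd14, 8 to 8 for pnd2 against gd14 and 8 to 9 for pnd2 against gd11; the F test gave 9 throughout. Over all settings and the single changes of the 9 genes, 2088 kept their side of the threshold, 53 lost their call and 11 gained one. The 2088 include changes called in neither fit whose sign could differ. That of Sycp1 from gd11 to gd12, for example, ranged from -0.37 to 0.18. The calls lost most often were those of Syce2 from gd11 to gd12 and of Terb1 for gd18 against gd14, in 18 settings each; the causes were not tested. Signals before gd14, and those of Hormad2 from gd16 on, were mostly below 116.05, where the log2 change depends on the pseudocount. No paired analysis was possible because array numbers are unique to a sample and no source pairs samples across stages.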

Other observations

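On the single reference array, of pooled male and female whole animals, Syce2 read 633.78 and the other genes were low: Sycp3 36.56, Syce1 35.16, Sycp1 22.88, Sycp2 8.71, Tex12 5.55, Hormad2 4.26, Terb1 1.70 and Hormad1 1.07. Syce2 was thus the only gene of the 9 above 116.05 in whole-animal RNA, as it was on the gd11 ovary arrays, where it read 1106, 1277 and 1218. The reference has no replicate, and no test was made.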
